A study of Amphimedon queenslandica with 43 samples.

Results

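The most abundant transcript models of larvae of the demosponge Amphimedon queenslandica were the 121 models with an Aqu2.1 identifier and a mean raw count of at least 2500 over 43 individually sequenced larvae. They were 121 of 47411 models in the table, or 0.255%, and held 15.9% of all counts. None of the models with a TCONS identifier reached that mean, and all 121 passed the filter on low counts. The series asked how ambient light bears on the transcripts that a larva holds before and at the age of competence to settle. Larvae gathered in a 30-minute window that opened at 11 am were put under a light regime by 0.5 hours post emergence (hpe) and taken whole at 9 hpe, held to be the competent age, or at 1 hpe, held to be precompetent. At 9 hpe there were 7 larvae under constant light from a full-spectrum fluorescent tube, 7 under constant dark, where a neutral density filter still passed 6.6% of daylight, and 8 under natural day-night light. At 1 hpe there were 7 larvae in each of these regimes. All larvae were kept in filtered sea water.

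The larva of this sponge is a ciliated swimmer without neurons that carries a pigmented posterior ring with light-responsive cilia, and it must gain competence before it can settle and begin metamorphosis. In animal cells a small set of genes commonly supplies a large part of the messenger RNA, and in larvae such transcripts may be laid down by the mother or made by the larva itself. No file links an Aqu2.1 identifier to a gene name, and the RefSeq gene table of this species held 0 of the 121 identifiers. No name, function or sequence is therefore given for any model, and members are ordered below by level and by how they changed. Libraries were made by CEL-Seq2, which primes on the poly(A) tail and marks the 3' end of a transcript, so that transcript length does not enter the count. Models with near-identical copies may share reads, which makes the split between such copies uncertain. CEL-Seq2 primers carry random tags that mark single molecules, and a count of different tags cannot exceed the number of tags. Whether the deposited counts are counts of tags is not given in the sources used here.

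Total counts per larva ran from 1890954 to 3927366 (median 2869317). At 9 hpe they ran from 2660350 to 3677302 in constant light, from 2093537 to 3485926 in constant dark and from 1890954 to 3342040 in day-night. On the second principal component of all tested models, whose sign is arbitrary, 27 larvae lay in the middle and 8 at each end. At the low end were 4 constant-light larvae at 9 hpe, 1 constant-light larva at 1 hpe and 3 constant-dark larvae at 1 hpe. At the high end were 1 constant-dark and 2 day-night larvae at 9 hpe, and at 1 hpe 3 larvae of constant light and 2 of day-night. Comparisons were repeated without the 8 low-end larvae, and without all 16 larvae of both ends, which leaves 3 larvae in each constant-light group. The second choice was made after seeing the data. Neither parents nor batches are labelled, and each p-value therefore speaks of the spread among these larvae alone. With a single collection window, 9 hpe larvae were also taken later in the day, and the age and the hour cannot be told apart.

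The counts fell off steeply among the first members and slowly after them. Of the 121 members, 22 had a mean count of at least 5000, 61 lay between 3000 and 5000, and 38 lay between 2500 and 3000. The most abundant model held 0.280% of all counts, the first 5 held 1.28%, the first 10 held 2.39% and the first 60 held 9.84%. The rule had a threshold with no gap at it. Just inside it, Aqu2.1.40639_001 had a mean of 2507 counts and Aqu2.1.38133_001 a mean of 2505. Just outside it, Aqu2.1.19199_001 had a mean of 2484 and Aqu2.1.24281_001 a mean of 2482, and 78 Aqu2.1 models lay between 2000 and 2500.

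**Figure D1:**
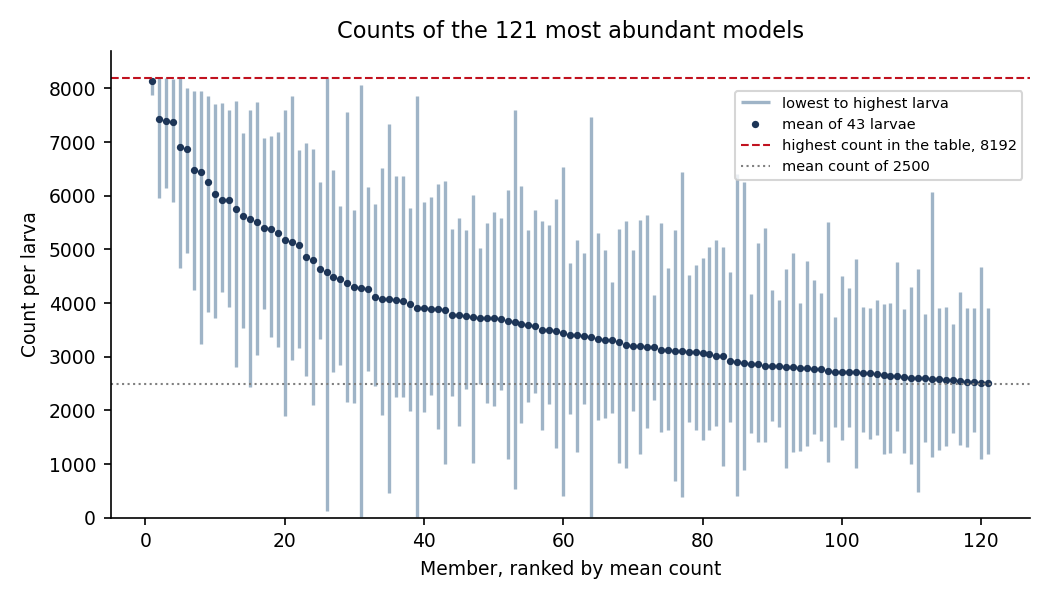
Raw count per larva (y axis) of the 121 members ranked by mean count (x axis). Points are means over 43 larvae, vertical lines run from the lowest to the highest larva, the dashed line is the highest count in the table, and the dotted line is the mean count of 2500 that chose the members. The first models press against the upper line, and a few lower-ranked members fall to as few as 11 counts in their lowest larva.

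The counts of the deposited table had a ceiling, drawn as the dashed line in the plot of counts by rank, and 23 values, all of 2 members, stood exactly at it. Aqu2.1.25583_001, the most abundant model, was at this ceiling in 2 of 22 larvae at 9 hpe and in 20 of 21 larvae at 1 hpe. Its median count was 8073 in constant light, 8092 in constant dark and 8139 in day-night larvae at 9 hpe, and at 1 hpe the median was the ceiling in each regime. The counts of this model thus varied by 0.973% (coefficient of variation, CV) between larvae, while its level in CPM (counts relative to library size after trimmed-mean normalization) varied by 17.4%.

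The same limit touched further members. Values of at least 8000 occurred 109 times, all in 8 members, and 26 of the 109 came from 9 hpe larvae and 83 from 1 hpe larvae. A count of at least 6144, or 0.75 of the ceiling, was found for 44 members in at least 1 larva, and in 601 of 5203 member values. Aqu2.1.39816_001, the fifth model by level, had 5085, 5657 and 6158 counts (lowest, median and highest larva) in constant light at 9 hpe and 7654, 8072 and 8162 in constant light at 1 hpe. Its day-night larvae had 4648, 6046 and 8112 counts at 9 hpe and 8124 and 8174 (lowest and median) at 1 hpe, with the highest at the ceiling. The raw counts of the 2 ages did not overlap in either regime, whereas the CPM values did.

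Because of that limit each comparison was repeated with counts corrected as if the ceiling were the number of different tags available to each model and larva. The correction is an assumption about the table, and values at the top of the range depend on it most. Among the 22 members with a mean count of at least 5000, the median CV of CPM was 21.4% as deposited and 43.7% when corrected. Among the 38 members with a mean of 2500 to 3000 it was 25% and 29.7%. Fold changes below are from the deposited counts unless the correction is named.

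The members held a smaller share of the counts in older larvae. In constant light they held 13.9% ± 1.70 of all counts at 9 hpe and 16.4% ± 0.993 at 1 hpe (SD, n = 7 each). In constant dark the share was 14.4% ± 1.00 at 9 hpe and 17.4% ± 1.34 at 1 hpe (n = 7 each). In day-night larvae it was 15.9% ± 1.03 at 9 hpe (n = 8) and 18.03% ± 1.25 at 1 hpe (n = 7). The larvae ranged from 12.7% to 17.5% in constant light at 9 hpe and from 15.1% to 17.9% in constant light at 1 hpe, so that these groups overlapped through 1 older larva at 17.5%. Constant-dark larvae ranged from 12.7% to 15.6% at 9 hpe and from 15.3% to 19.1% at 1 hpe, and day-night larvae from 15.1% to 18.2% at 9 hpe and from 16.3% to 19.6% at 1 hpe, so both of these regimes overlapped too. With counts corrected for the ceiling the mean share was 18.71%, 18.58% and 22.07% in constant light, constant dark and day-night at 9 hpe. At 1 hpe it was 25.38%, 28.14% and 29.02%. At 9 hpe the constant-light and constant-dark means differed by less than the SD of either group, both as deposited and corrected (corrected SD 3.51 and 1.06). Mean total counts were 3212744, 2508172 and 2489125 at 9 hpe and 3164866, 3143107 and 2959936 at 1 hpe, in the same order. Whether the ceiling or the totals bear on the differences in share was not tested. The members were chosen by mean raw count over both ages, so that a model can enter mainly through its 1 hpe larvae, and the share was not tested. In whole larvae, fewer cells of a type and less RNA per cell cannot be told apart.

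**Figure D2:**
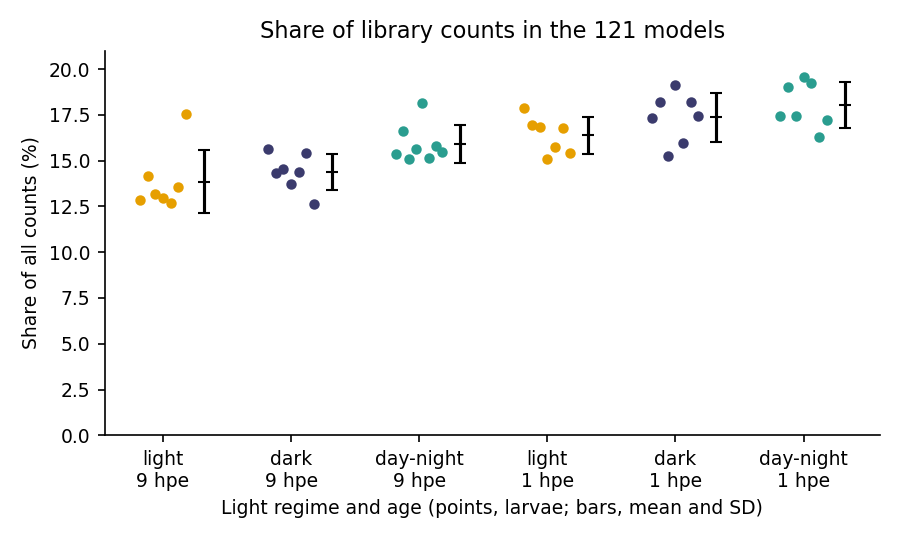
Share of all counts, in percent, held by the 121 members in each larva (points), with the mean and SD of each group (bars). From left to right the groups are constant light, constant dark and day-night at 9 hpe, then the same regimes at 1 hpe. In each regime the 9 hpe mean lies below the 1 hpe mean, and 1 constant-light larva at 9 hpe lies at 17.5%.

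Between 1 and 9 hpe the members that changed mostly fell, and they did so in each regime. In constant-dark larvae 81 of 121 members fell and 2 rose, while 38 did not pass (edgeR quasi-likelihood F test, adjusted p below 0.05 over 14188 models). Over all models tested in constant dark 10.6% were called lower and 9.39% higher. In day-night larvae 54 members fell and 6 rose, against 12.1% of all models lower and 9.94% higher. In constant-light larvae 26 fell and 1 rose, against 3.48% lower and 2.63% higher. The median log2 fold change of the members was -0.32 in constant light, -0.49 in constant dark and -0.35 in day-night larvae, and that of all tested models was 0.00, 0.01 and 0.01. A log2 fold change below 0 was found for 108, 112 and 103 members in these regimes, and for 49.8%, 49.1% and 49.3% of all tested models. The members were chosen by mean raw count over both ages. Mean totals were larger at 1 hpe in constant dark (3143107 against 2508172) and in day-night larvae (2959936 against 2489125). A model can thus enter mainly through its 1 hpe larvae, so these falls describe the members and are not a test of abundant models.

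Most of these decreases were small. The median of the members called lower was -0.52 in constant light, -0.65 in constant dark and -0.62 in day-night larvae, and 1, 9 and 11 of them fell at least 2-fold. Without the low-end larvae 29, 76 and 54 members fell, among them 19 of the 26, 73 of the 81 and 53 of the 54. Without the larvae of both ends 16, 73 and 60 fell, among them 11, 72 and 53 of these. The CPM values of 9 and 1 hpe larvae did not overlap, with the older larvae lower, for 43 members in constant dark, 18 in day-night and 5 in constant light, where 3.74%, 3.31% and 1.13% of all tested models were apart in that direction. In the other direction 3 members were apart in day-night, 0 in constant dark and 1 in constant light, where 2.41%, 2.23% and 0.888% of all tested models were. Of the 81 members that fell in constant dark, 54 also fell in day-night larvae, which is 66.7% of the first list and 100% of the second, and these regimes share no larvae. Between constant light and constant dark 25 were shared, 96.2% of the constant-light list and 30.9% of the constant-dark list. In all 3 regimes 21 members fell, and 33 members were called in no regime. None was called in opposite directions by 2 regimes. The overlap of regimes over all tested models is not given here, so these overlaps describe the members alone. Here and below, shares of all tested models are given only for the edgeR fit to the deposited counts of all 43 larvae. They are not given for the members that fell at least 2-fold, or for the repeats that left larvae out or corrected the counts. Those numbers describe the members alone.

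Models of the next lower levels moved the same way. Of 477 tested models with a mean count of 1000 to 2500, 46.8% fell in constant dark, 43.4% in day-night and 15.7% in constant light. The members had 66.9%, 44.6% and 21.5%. For 9074 tested models with a mean under 100 counts the shares were 5.22%, 7.34% and 1.73%. Models with more counts are easier to call, so these shares are a description of levels and not a test of them. The median log2 fold change in constant dark was -0.40 for models with 1000 to 2500 counts and 0.10 for those under 100 counts.

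**Figure D3:**
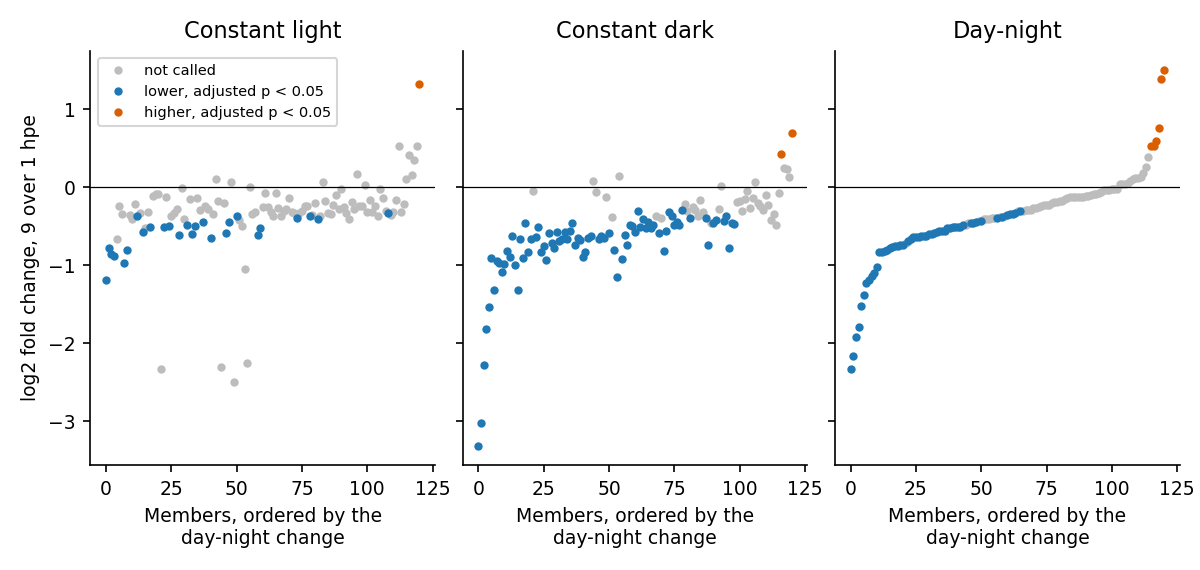
Log2 fold change of 9 over 1 hpe larvae (y axis) for the 121 members in constant light, constant dark and day-night, with members in each panel ordered by their day-night change (x axis). Blue members fell and orange members rose at an adjusted p below 0.05, and grey members did not pass. Most points lie below 0 in each panel, and 4 grey points near -2.3 in constant light are the members of widest spread between larvae.

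The correction for the ceiling moved the age change of the highest members most. For the 22 members with a mean count of at least 5000 the median age change was -0.34 in constant light, -0.49 in constant dark and -0.29 in day-night as deposited. It was -0.69, -1.25 and -0.76 when corrected. For the 38 members with 2500 to 3000 counts it was -0.26, -0.46 and -0.13 as deposited and -0.30, -0.58 and -0.15 when corrected. Over all members the correction gave 36, 89 and 65 that fell, and these included 25 of the 26, all 81 and all 54 named above. Aqu2.1.25583_001 changed by -0.14 ± 0.12 SE in constant light, 0.06 ± 0.12 in constant dark and 0.06 ± 0.12 in day-night (edgeR adjusted p = 0.605, 0.769 and 0.799). Corrected, its values were -1.08, -1.03 and -0.60. It stood at the ceiling in 20 of 21 larvae at 1 hpe, where the corrected count follows from the chosen 0.5 taken off. These 3 values thus rest on that setting, and neither their size nor a test of them measures the change of this model. Aqu2.1.42556_001, the second model, went the other way in day-night larvae, at 0.13 ± 0.12 SE as deposited (edgeR adjusted p = 0.474) and 0.65 ± 0.23 when corrected, where it passed.

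The largest decrease with age was that of Aqu2.1.28748_001. In constant dark it had 152, 185 and 278 CPM (lowest, median and highest larva) at 9 hpe and 1497, 1920 and 2396 CPM at 1 hpe. In day-night larvae it had 251, 449 and 552 CPM at 9 hpe and 1745, 2071 and 2572 CPM at 1 hpe. In constant light it had 445, 762 and 1152 CPM at 9 hpe and 1275, 1796 and 2138 CPM at 1 hpe. No 9 hpe larva of a regime reached its 1 hpe larvae. Among 9 hpe larvae those of constant light had the highest median and overlapped with day-night larvae. That difference from day-night had an edgeR adjusted p of 0.000866, with 7.44e-05 to 0.178 over the alternatives. The age change of Aqu2.1.28748_001 on the log2 scale was -3.32 ± 0.18 SE in constant dark, a 10.01-fold decrease (edgeR adjusted p = 2.89e-17). In day-night larvae it was -2.33 ± 0.16 SE (adjusted p = 3.20e-14) and in constant light -1.19 ± 0.17 SE (adjusted p = 7.35e-06).

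Aqu2.1.37571_001 was the second of the members that fell most in constant dark and in day-night. In constant dark its levels were 177, 272 and 338 CPM at 9 hpe and 1897, 2074 and 2555 CPM at 1 hpe. In day-night larvae they were 377, 611 and 939 CPM at 9 hpe and 1890, 2546 and 3103 CPM at 1 hpe. In constant light they were 918, 1001 and 1495 CPM at 9 hpe and 1382, 1939 and 2197 CPM at 1 hpe. The ages did not overlap in constant dark or day-night and overlapped in constant light. Its change on the log2 scale was -3.02 ± 0.17 SE in constant dark (edgeR adjusted p = 2.89e-17), -2.16 ± 0.15 SE in day-night (adjusted p = 3.11e-14) and -0.78 ± 0.15 SE in constant light (adjusted p = 0.00115). The constant-light value did not pass without the larvae of both ends (adjusted p = 0.0628, from 4.93e-05 to 0.0628 over the alternatives).

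In constant light the second of the members that fell most was Aqu2.1.17811_001. It had 334, 699 and 929 CPM at 9 hpe and 840, 1288 and 1790 CPM at 1 hpe, so the ages overlapped, and the change on the log2 scale was -0.97 ± 0.25 SE (edgeR adjusted p = 0.0165). Without the low-end larvae it was -0.86 and did not pass, nor did it without both ends, at -0.77 (adjusted p = 0.203 and 0.200, from 0.00428 to 0.203 over the alternatives). It also fell in constant dark, by 0.94 ± 0.25 SE on the log2 scale (edgeR adjusted p = 0.00655), and in day-night larvae, by 1.20 ± 0.24 SE (adjusted p = 0.000295).

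Few members rose with age, and Aqu2.1.24972_001 rose in all 3 regimes. It had 1249, 1724 and 2809 CPM in day-night larvae at 9 hpe and 431, 652 and 858 CPM at 1 hpe. Constant-light larvae had 1137, 1237 and 1950 CPM at 9 hpe and 306, 586 and 658 CPM at 1 hpe. Constant-dark larvae had 886, 1093 and 1258 CPM at 9 hpe and 480, 617 and 1008 CPM at 1 hpe. The ages were apart in day-night and constant light and overlapped in constant dark. On the log2 scale the change was 1.51 ± 0.17 SE in day-night (edgeR adjusted p = 7.39e-09), 1.32 ± 0.17 SE in constant light (adjusted p = 2.22e-06) and 0.70 ± 0.17 SE in constant dark (adjusted p = 0.00292). Without the low-end larvae the constant-dark value was 0.54 and did not pass (adjusted p = 0.0731, with 0.00100 to 0.0731 over the alternatives).

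The rise of Aqu2.1.41528_001 was called in day-night larvae. It had 979, 1554 and 2102 CPM there at 9 hpe and 371, 559 and 838 CPM at 1 hpe, with no overlap, and a change on the log2 scale of 1.38 ± 0.21 SE (edgeR adjusted p = 4.29e-06). In constant dark it had 446, 1065 and 1646 CPM at 9 hpe and 569, 977 and 1375 CPM at 1 hpe, and in constant light 637, 947 and 1327 CPM at 9 hpe and 443, 627 and 942 CPM at 1 hpe, with overlap in both. Aqu2.1.32002_001 was the other member that rose in constant dark, with 1322, 1614 and 2298 CPM at 9 hpe and 1047, 1351 and 1509 CPM at 1 hpe. Its increase of 0.43 ± 0.15 SE (edgeR adjusted p = 0.0335) became 0.36 and did not pass without the low-end larvae. It did not pass without both ends or with no filter on low counts either (the adjusted p in these fits was 0.173, 0.152 and 0.0544, from 0.0189 to 0.173 over the alternatives).

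At 9 hpe constant-light larvae differed from day-night larvae in 17 members, 6 of them higher and 11 lower, where 2.88% of all tested models were higher and 1.97% lower. Without the low-end larvae 3 were higher and 10 lower, of which 3 and 4 were among these. Without the larvae of both ends 2 were higher and 9 lower, of which 2 and 4 were among these. Aqu2.1.22573_001 led the higher ones, with 233, 784 and 1175 CPM in constant light and 250, 353 and 521 CPM in day-night. Its constant-light larvae lay above all day-night larvae apart from the lowest of them, at 233 CPM. On the log2 scale the change was 1.08 ± 0.20 SE (edgeR adjusted p = 0.000443). Aqu2.1.37571_001, with the levels given above, was second at 0.89 ± 0.15 SE (adjusted p = 9.36e-05) and did not pass without the low-end larvae or without both ends (0.67 and 0.60, adjusted p = 0.0736 and 0.187, from 1.10e-06 to 0.187 over the alternatives). The other 4 higher members had log2 fold changes of 0.66 to 0.81.

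Of the 11 members lower in constant light at 9 hpe, Aqu2.1.41009_001 differed most. It was the only one of the 11 whose groups did not overlap. The groups were also apart for Aqu2.1.26071_001 and Aqu2.1.35836_001, which were not called, and 0.782% of all tested models were apart in this direction. It had 214, 476 and 807 CPM in constant light and 1138, 1480 and 2062 CPM in day-night, with no overlap. The fold change on the log2 scale was -1.51 ± 0.34 SE (edgeR adjusted p = 0.00366). Aqu2.1.41528_001 was second at -0.76 ± 0.21 SE (adjusted p = 0.0240). Neither passed without the low-end larvae (-1.28 and -0.91, adjusted p = 0.109 and 0.107) or without both ends (-1.22 and -0.84, adjusted p = 0.0662 and 0.241). All alternatives together gave adjusted p-values of 0.000200 to 0.109 for the first and of 0.00781 to 0.241 for the second. Among the 11 were 3 of the 5 most abundant models. Mean total counts were 3212744 for constant-light larvae and 2489125 for day-night ones at this age. Aqu2.1.42556_001, for example, had 6580, 7198 and 8129 counts in constant light and 7495, 7802 and 8188 counts in day-night, and its difference of -0.49 ± 0.12 SE on the log2 scale (adjusted p = 0.0104) became -0.98 ± 0.23 when corrected. With corrected counts 8 members were lower, all of them among the 11.

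Constant-dark larvae at 9 hpe differed from day-night larvae in 7 members, all lower, where 1.40% of tested models were lower and 0.310% higher. The groups did not overlap for 4 of them (0.853% of tested models). Aqu2.1.41009_001 again differed most, with 103, 375 and 558 CPM in constant dark against the 1138 to 2062 CPM of day-night larvae, which is -2.08 ± 0.34 SE on the log2 scale (edgeR adjusted p = 7.35e-05). At 1 hpe it had 441, 997 and 2292 CPM in constant light, 209, 754 and 1446 CPM under constant dark and 1387, 1749 and 3098 CPM in day-night. It was not called there by edgeR in constant light or constant dark against day-night (adjusted p = 0.224 and 0.233), and DESeq2 called the second (adjusted p = 0.0368, with 0.0368 to 0.644 over the alternatives). Aqu2.1.37571_001 was lower in constant dark by 1.17 ± 0.15 SE on the log2 scale (adjusted p = 6.80e-07), and its highest constant-dark larva, at 338 CPM, lay below its lowest day-night larva, at 377 CPM. The other 5 had log2 fold changes of -1.12 to -0.40.

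Constant-light larvae at 9 hpe differed from constant-dark larvae in 6 members, all higher in constant light, where 0.684% of tested models were higher and 0.134% lower. The groups did not overlap for 3 of them (0.367% of tested models). Aqu2.1.37571_001 differed by 2.05 ± 0.16 SE on the log2 scale (edgeR adjusted p = 6.29e-12) and Aqu2.1.28748_001 by 1.93 ± 0.17 SE (adjusted p = 1.77e-10). For both, the lowest constant-light larva (918 and 445 CPM) lay above the highest constant-dark larva (338 and 278 CPM). The other 4 had log2 fold changes of 0.69 to 1.37. Without the low-end larvae 3 of the 6 passed, without both ends 3 did, beside 2 others that were lower, and with only these groups in the fit 3 did.

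**Figure D4:**
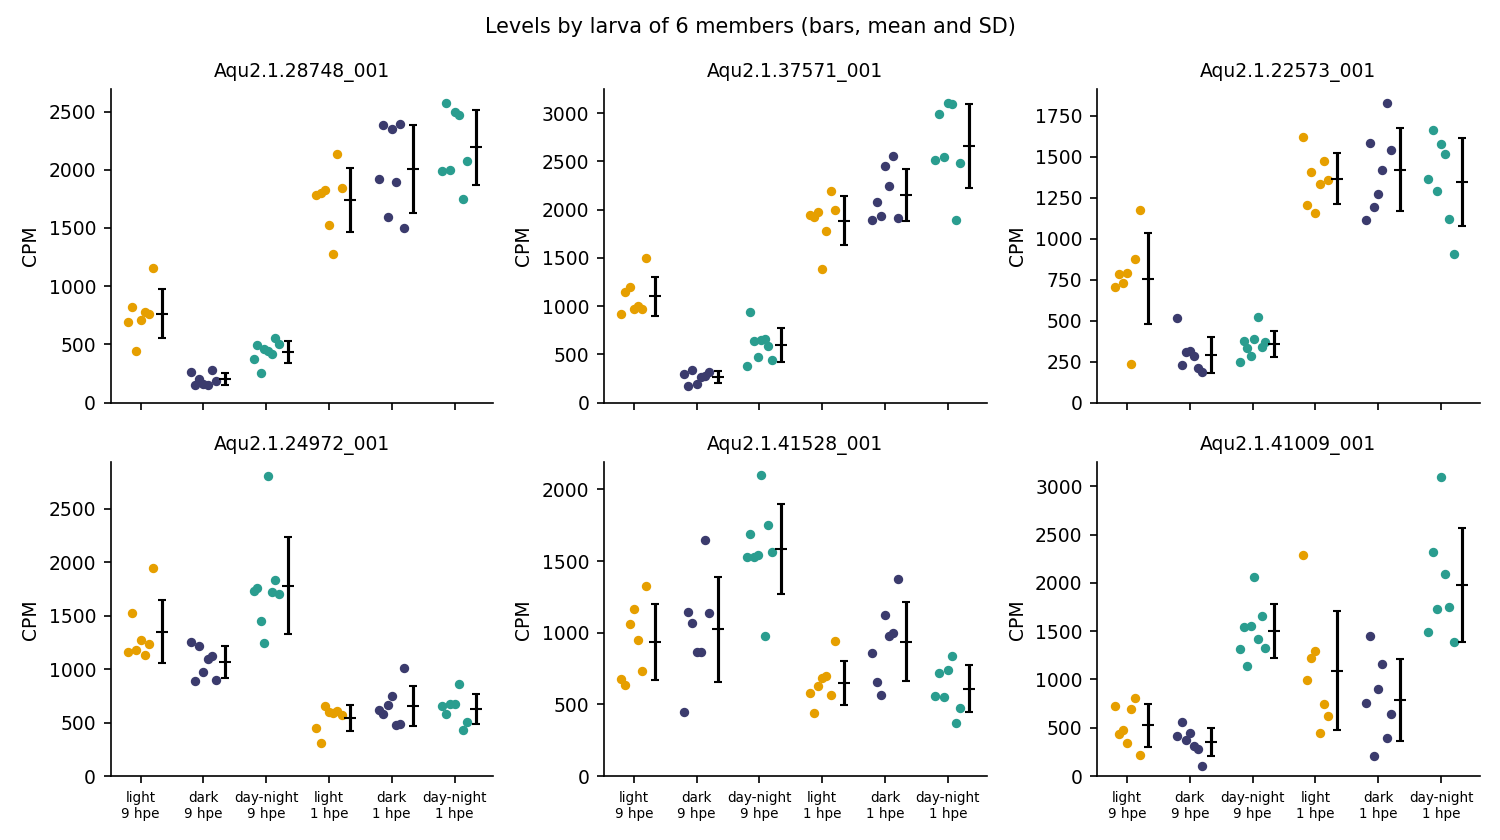
Level in CPM by larva (points) of 6 members, with the mean and SD of each group (bars), for constant light, constant dark and day-night at 9 hpe and then at 1 hpe. In the upper row 9 hpe larvae lie below 1 hpe larvae on average, and the ages overlap in constant light for the middle and right models. The constant-light larvae at 9 hpe lie highest of their age on average. In the lower row, the first model is higher on average at 9 hpe in each regime, and the second is high in day-night larvae at 9 hpe. The third is highest on average in day-night larvae at both ages.

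The change with age itself differed between regimes for few members. Between constant light and day-night it differed for 6 members, all with a smaller decrease or larger increase in constant light (1.56% of tested models were called in that direction and 1.04% in the other). The difference was 1.38 ± 0.21 SE on the log2 scale for Aqu2.1.37571_001 (edgeR adjusted p = 9.94e-05) and 1.14 ± 0.23 SE for Aqu2.1.28748_001 (adjusted p = 0.00269). Between constant light and constant dark it also differed for 6 members, again all upwards in constant light (0.740% of tested models, with 0.303% downwards), by 2.24 ± 0.22 SE for Aqu2.1.37571_001 (adjusted p = 4.94e-09) and 2.14 ± 0.24 SE for Aqu2.1.28748_001 (adjusted p = 1.07e-07). With corrected counts these numbers were 12 and 14, without the low-end larvae they were 4 and 3, and without both ends they were 0 and 2. Between constant light and day-night the difference without both ends was 1.19 for Aqu2.1.37571_001 and 1.08 for Aqu2.1.28748_001 (adjusted p = 0.113 and 0.226, from 1.24e-07 to 0.113 and from 0.000166 to 0.226 over the alternatives). Between constant light and constant dark both passed in that fit too. Between constant dark and day-night it differed for 3 members, all downwards in constant dark (0.782% of tested models, with 0.155% upwards). These included Aqu2.1.41528_001 at -1.26 ± 0.30 SE (adjusted p = 0.0218) and Aqu2.1.28748_001 at -0.99 ± 0.23 SE (adjusted p = 0.0156). Without both ends 0 of the 3 passed edgeR, and these values were -1.28 and -1.03 (adjusted p = 0.174 and 0.148, from 0.00486 to 0.174 and from 0.00339 to 0.148 over the alternatives).

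At 1 hpe few members passed between regimes, while most lay slightly lower in constant light. The log2 fold change was below 0 for 105 of 121 members in constant light against day-night and for 100 of 121 against constant dark. Of all tested models 50.1% and 49.7% were below 0 in these comparisons. The median of the members was -0.18 in both, and that of all tested models was near 0. Constant-light larvae were lower than day-night larvae in 3 members, where 0.733% of tested models were lower and 0.141% higher. Aqu2.1.21215_001 had 815, 1016 and 1189 CPM in constant light and 1139, 1746 and 1976 CPM in day-night, or -0.69 ± 0.15 SE on the log2 scale (edgeR adjusted p = 0.0116). Aqu2.1.36449_001 had 1085, 1430 and 1661 CPM in constant light and 1543, 1941 and 2244 CPM in day-night, or -0.47 ± 0.11 SE on the log2 scale (adjusted p = 0.0278). The groups overlapped for both, and 0 members passed with no filter on low counts, without the low-end larvae, without both ends, or with only these groups in the fit. Between constant dark and day-night 0 members passed edgeR, 3 had an unadjusted p below 0.05, DESeq2 called 1 and limma voom 0 (0.0141% of tested models were called by edgeR). Between constant light and constant dark 0 members passed edgeR, where 0.148% of tested models were called at an adjusted p below 0.05. DESeq2 called 1 member and limma voom 0, and 21 had an unadjusted edgeR p below 0.05. The share of all tested models with an unadjusted p below 0.05 is not given here for either pair of regimes. The unadjusted counts are therefore not to be set against the shares called. The constant-light larvae lay wholly below the constant-dark larvae for 3 members, where 0.289% of tested models did, namely Aqu2.1.36109_001, Aqu2.1.33769_001 and Aqu2.1.43654_001, at -0.30, -0.28 and -0.72 on the log2 scale (edgeR adjusted p = 0.348, 0.182 and 0.147).

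As deposited, most members varied less between larvae than the typical tested model. The median CV of CPM over all 43 larvae was 24.8% for the members, 24.03% for models with 1000 to 2500 counts, and 48.1% for all tested models, in which low counts add counting error. The ceiling also limits the counts of the highest members. With corrected counts the median CV was 43.7% for members with a mean of at least 5000, 33.3% for 3000 to 5000 and 29.7% for 2500 to 3000. A corrected median for all tested models is not given here. Of the 121 members, 31 had a CV under 20% and 11 a CV of at least 50%. Aqu2.1.36834_001 was the steadiest at 13.5%, with 646 to 1289 CPM over all larvae, and Aqu2.1.41951_001 followed at 14.4%, with 790 to 1683 CPM. Neither was called in any of the age comparisons.

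The 4 members of widest spread within groups were present at a high level in 30 larvae and at a low level in the same 13 larvae. The rule for named models gave Aqu2.1.30620_001 and Aqu2.1.33181_001, with the highest CV at 75.8% and 73.4%, and Aqu2.1.35836_001 and Aqu2.1.26071_001 were added after their values were seen. Aqu2.1.33181_001 had 4.14 to 45.0 CPM in the 13 larvae and 1141 to 3363 CPM in the others, with no larva between. Aqu2.1.35836_001 had 5.38 to 77.8 and 1319 to 3688 CPM, Aqu2.1.30620_001 had 3.11 to 171 and 938 to 3292 CPM, and Aqu2.1.26071_001 had 43.3 to 340 and 1161 to 3880 CPM. In raw counts the low larvae held 11 to 132 counts of Aqu2.1.33181_001 and the others 3186 to 7862.

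Those 13 larvae were spread over 5 of the 6 groups. They were constant-light replicates 2, 3, 4, 5 and 7 and constant-dark replicates 2 and 3 at 9 hpe, and constant-light replicate 7, constant-dark replicates 3, 5, 6 and 7 and day-night replicate 7 at 1 hpe. None of the 8 day-night larvae at 9 hpe was among them, and all 8 low-end larvae of the second component were. Total counts of the 13 ran from 2313365 to 3927366. The within-group SD of log2 CPM was 1.65 to 2.79 for the 4 models, 0.64 for the next member and 0.24 at the median of the members. None of the 4 was called in any comparison by the main edgeR fit, which had 6 group means and no block. Other fits called Aqu2.1.26071_001 lower with age in constant light (DESeq2, limma voom, corrected counts and the replicate block) and lower in constant light than in day-night at 9 hpe (DESeq2, limma voom and the replicate block). In the second of these limma voom also called Aqu2.1.30620_001 and Aqu2.1.35836_001. In constant light their age changes were -2.25 to -2.50, with standard errors of 0.83 to 1.23 and adjusted p from 0.0648 to 0.302 (edgeR). Without these 4 models the members' share of counts was 13.7%, 13.9% and 15.2% in constant light, constant dark and day-night at 9 hpe and 15.7%, 16.9% and 17.1% at 1 hpe.

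**Figure D5:**
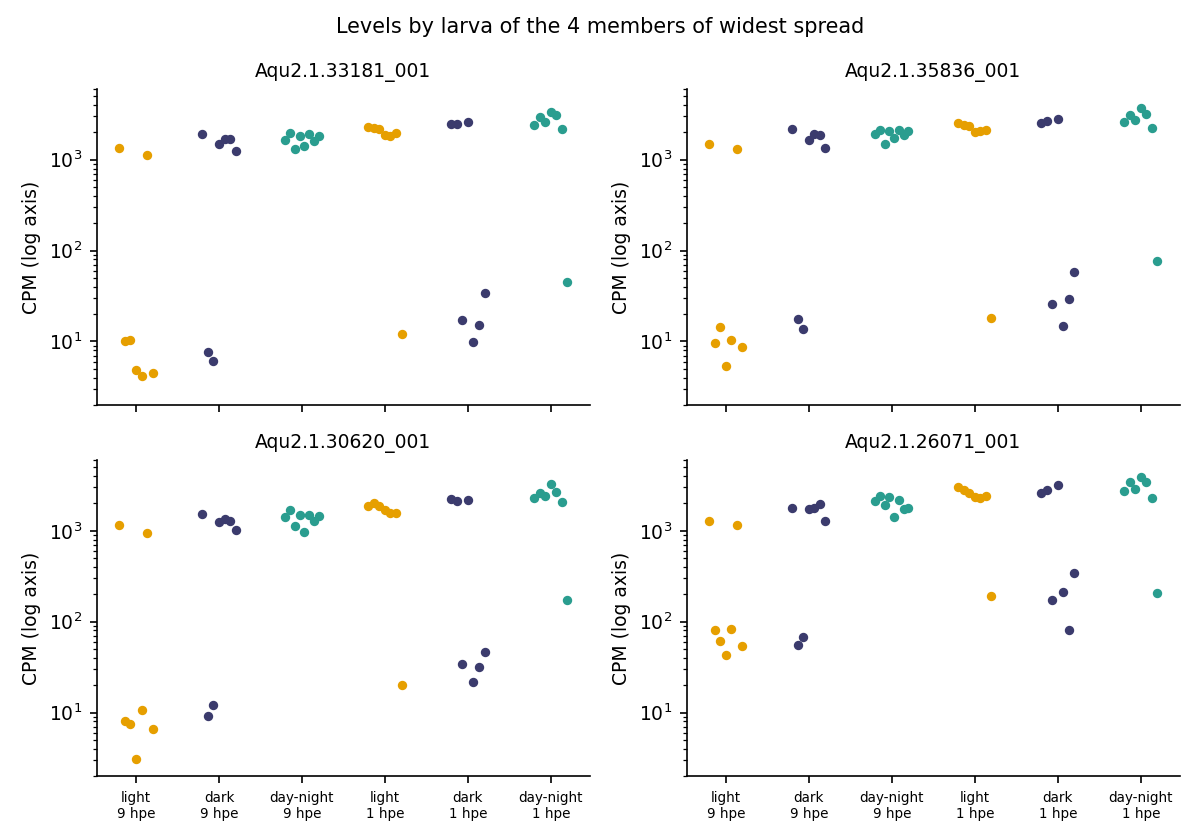
Level in CPM on a log axis by larva (points) of the 4 members of widest spread, for constant light, constant dark and day-night at 9 hpe and then at 1 hpe. In each panel 13 larvae lie at or below 340 CPM and 30 at or above 938 CPM, and the 8 day-night larvae at 9 hpe all lie high.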

How the data were processed

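Per the labels' protocols, RNA of single larvae was isolated with TRIzol and sequenced by CEL-Seq2. Raw counts, with transcript models in rows and larvae in columns, were deposited by the authors without spike-in and bacterial features, per the file's name. Aligner, counter and genome build were not given in the sources used here. A normalized table of the same larvae was not used. The members, the comparisons and the rule for named models (at most 2 that rose and 2 that fell per comparison, the 5 most abundant, the extremes of CV and the models beside the threshold) were chosen with earlier results of these data known.

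Groups came from sample titles. Models passing filterByExpr by group at a minimum count of 10 were tested with edgeR 4.0.16 in R 4.3.3, with TMM scaling, a robust quasi-likelihood fit of 6 group means to all 43 larvae, and Benjamini-Hochberg adjustment over 14188 models. CPM are relative to the counts of tested models, scaled by TMM. Standard errors are the fold change over the root of F. Alternatives were DESeq2 1.42.0, limma voom 3.58.1, no filter, scaling without the members, counts c replaced by -M ln(1 - c/M), with M the highest count in the table and values at M lowered by 0.5, a replicate block, leaving out the larvae beyond the widest gap on the second principal component, or (added after seeing the data) those at both of its ends, and only the compared groups. The fit was tested on simulated data for the day-night age comparison alone. Those data had no count ceiling, so that test does not bear on members held at the ceiling. Larvae are separate samples per the labels. Totals of 1890954 to 3927366 counts leave little counting error at these levels.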

Additional observations from a re-analysis of the deposited data

Results flagged for a closer look

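Of 144 sets of named values by group, 13 held a larva far from the rest of its group. Chance gives about 1 in 20 for independent sets, but these sets share larvae, and the same larvae recur among the 13. Aqu2.1.33181_001 and Aqu2.1.30620_001 were also named for their high CV. Whether 13 exceeds chance can therefore not be told from that rate. In constant light at 9 hpe, replicate 7 was the highest of 7 for Aqu2.1.29497_001 at 3194 CPM (next 2284), for Aqu2.1.43436_001 at 3084 CPM (next 2276) and for the members' share of counts at 17.5% (next 14.2%). It also had the smallest library of its group, with 2660350 counts. In day-night at 9 hpe, replicate 5 was the highest of 8 for Aqu2.1.43436_001 at 3416 CPM (next 2882), Aqu2.1.41951_001 at 1683 CPM (next 1230) and Aqu2.1.24972_001 at 2809 CPM (next 1836). In constant dark at 9 hpe, replicate 1 was the highest of 7 for Aqu2.1.17811_001 at 1460 CPM (next 862) and Aqu2.1.22573_001 at 515 CPM (next 313). In constant light at 1 hpe, replicate 7 was the lowest of 7 for Aqu2.1.32002_001 at 719 CPM (next 1080), Aqu2.1.33181_001 at 12.1 CPM (next 1845) and Aqu2.1.30620_001 at 20.3 CPM (next 1565). In day-night at 1 hpe, replicate 7 was the lowest of 7 for Aqu2.1.33181_001 at 45.0 CPM (next 2197) and Aqu2.1.30620_001 at 171 CPM (next 2087).

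The age change differed between regimes, by an edgeR test of the difference itself, for the named members given here. For Aqu2.1.37571_001 it was 1.38 higher on the log2 scale in constant light than in day-night (adjusted p = 9.94e-05) and 2.24 higher in constant light than in constant dark (adjusted p = 4.94e-09). For Aqu2.1.28748_001 these values were 1.14 (adjusted p = 0.00269) and 2.14 (adjusted p = 1.07e-07), and constant dark minus day-night gave -0.995 (adjusted p = 0.0156). For Aqu2.1.41528_001 and Aqu2.1.37571_001 constant dark minus day-night gave -1.26 and -0.859 (adjusted p = 0.0218 and 0.0322). The age change of Aqu2.1.22573_001 was 1.06 higher in constant light than in day-night (edgeR adjusted p = 0.0357, from 0.0134 to 0.224 over the alternatives). It was 1.43 higher in constant light than in constant dark (edgeR adjusted p = 0.0104, from 0.000812 to 0.203 over the alternatives).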

How the results depend on the processing

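The number of members called moved by over 1.5 times as follows, and the cause was not tested, though leaving out larvae also leaves fewer of them. For the age change in constant light, 27 became 42 with DESeq2, 41 with limma voom, 16 with no filter on low counts and 17 without the larvae at both ends of the second component (chosen after seeing the data). At 9 hpe, constant light against day-night, 17 became 11 with no filter, 11 with only the compared groups and 11 without both ends. For constant light against constant dark at 9 hpe, 6 became 3 without the low-end larvae and 3 with only the compared groups. At 1 hpe, constant light against day-night, 3 became 7 with DESeq2 and 0 with no filter, without the low-end larvae, without both ends, and with only the compared groups. At 1 hpe, for both other pairs of regimes, 0 became 1 with DESeq2. For the difference of the age change of constant light from day-night, 6 became 12 with DESeq2, 12 with corrected counts and 0 without both ends, and that of constant dark from day-night went to 0 without both ends, against 3. For that of constant light from constant dark, 6 became 13 with DESeq2, 14 with corrected counts, 3 without the low-end larvae and 2 without both ends. The members' share of counts, 15.98% on average, was 23.6% with corrected counts, 21.95% at a mean of 2000 and 12.4% at a mean of 3000. Of 27 fold changes of named members, 15 passed under each of the 9 alternatives, and 0 reversed. With the replicate block the age changes gave 26, 78 and 56 called members in constant light, constant dark and day-night, against 27, 83 and 60. Same-numbered larvae did not deviate together (4 of 105 pairs with a correlation over 0.1), so the numbers do not pair them. Counts limited from above restrict what can be said of the highest members.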

Other observations

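Consecutive identifier numbers occurred for 2 pairs of members. Aqu2.1.37538_001 had 0.994 to 1.19 times the count of Aqu2.1.37537_001 in each larva (median 1.10), at mean counts of 5912 and 5392. Aqu2.1.29990_001 had 0.529 to 0.969 times the count of Aqu2.1.29989_001 (median 0.738), at mean counts of 2719 and 3725. These models were singled out after their values were seen, and whether such models share reads was not tested.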
